A study of Mus musculus with 12 samples.

Results

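The 10 genes described here encode enzymes that make, phosphorylate or consume nicotinamide adenine dinucleotide (NAD) in the mouse retina. They were taken by name, as exact matches to the gene names of the deposited expression table, and all 10 were found among its 55487 genes: Nampt, Naprt, Nmrk1, Nmnat1, Nmnat2, Nmnat3, Nadk, Parp1, Cd38 and Sarm1. Each of them also passed the filter on low values, a mean above 1 FPKM in at least 1 group, which left 16471 genes for testing. FPKM is the number of fragments scaled to transcript length and to the mapped fragments of the library, so that levels can be set side by side between genes.

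NAD is a redox cofactor that cells must remake continuously, because several enzymes cleave it. In salvage synthesis, NAMPT converts nicotinamide and NMRK1 converts nicotinamide riboside to nicotinamide mononucleotide (NMN), whereas NAPRT starts a separate route from nicotinic acid, and the NMNAT enzymes then join the mononucleotide to an adenylate group. NMNAT1 is nuclear, NMNAT2 is a short-lived protein of the Golgi and axon, and NMNAT3 is assigned to mitochondria. SARM1 is a neuronal NAD-cleaving enzyme that is held inactive while NAD is ample and is activated when NMN accumulates after NMNAT2 is lost, which drives the breakdown of injured axons, including those of retinal ganglion cells (RGCs).

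The retinas came from adult mice of 3 kinds. Wild type (WT) mice were C57BL/6J, and the labels name no vector for them. The shPax6 mice were C57BL/6J transduced with an AAV2.7m8 vector that expresses a U6-driven short hairpin RNA against Pax6 together with GFP. The JNK3 KO mice had a germline Jnk3-/- genotype. Eyes of each kind received 1 µL of PBS or 1 µL of 40 mM NMDA (40 nmol), a glutamate receptor agonist that kills RGCs and other inner retinal neurons by excitotoxicity. Every group held 2 poly(A) RNA libraries, 12 in all, and each library pooled the RNA of more than 3 retinas. No library is labelled as carrying a scramble-hairpin vector, so transduction and Pax6 knockdown cannot be told apart. The paper refers to biological replicates in its WT and shPax6 RNA-seq. The labels do not say whether the 2 libraries of a group came from separate animals. The p-values then measure only the spread between these libraries, which may be technical.

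Both WT NMDA libraries stood apart from the other 10. Their FPKM summed to 805627 and 820180, against 541210 to 576922 elsewhere, and the median WT response fell with gene length, from 1.03 on the log2 scale for genes under 1 kb to -1.17 for genes over 4 kb. A 3′ end model here begins past the middle of the gene on the genome and ends near its 3′ end. It can still hold most of the spliced transcript. Among 4500 genes with such models, they took on average 32.9% and 33.1% of the gene's FPKM in the WT NMDA libraries. In the other libraries they took 17.6% to 20.9%. The WT responses of the 10 genes therefore rest on libraries of a different composition, and they are also given after removal of each library's trend on gene length (length correction). The labels were checked on their target genes: Pax6 was at 173 and 177 FPKM in WT PBS and 94.6 and 92.8 FPKM in shPax6 PBS, and Mapk10, which encodes JNK3, was at 42.8 and 50.7 FPKM in WT PBS and 9.47 and 8.75 FPKM in JNK3 KO PBS. Under NMDA neither gene separated the labels: Pax6 was at 55.4 and 53.8 FPKM in WT and 67.5 and 58.7 FPKM in shPax6, and Mapk10 at 8.98 and 6.00 FPKM in WT and 6.65 and 13.8 FPKM in JNK3 KO. The summed FPKM of 8 RGC markers went from 536–555 under PBS to 297–318 under NMDA in WT, from 157–158 to 38.3–46.4 in shPax6 and from 510–551 to 125–127 in JNK3 KO, with none of the markers at 0, and 5 rod markers summed to 19350–34200 FPKM over all groups. In shPax6 the rod sum went from 31480–34200 FPKM under PBS to 19350–19710 FPKM under NMDA, and that of 4 cone markers from 796–850 to 133–164 FPKM. The part of these changes in the shPax6 responses was not tested. In whole retinas, fewer cells of a type and less RNA per cell cannot be told apart. All marker sums are uncorrected FPKM, so those of WT NMDA carry the higher total and the length trend of these libraries.

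The 10 genes did not move as a block after NMDA. Nmnat2 fell in all 3 kinds of retina, Naprt and Nadk rose in WT and shPax6, and Cd38, Nmnat3 and Nmrk1 rose past the test in shPax6 without passing it in WT. Under some other settings the WT rises of Cd38 and Nmnat3 passed too. Rescaling to TPM, described below, turned the WT rise of Nadk into a fall that passed. Nampt fell in WT, and its WT response was lower than that of both other kinds, but none of these calls held with the length correction. Gene-level Sarm1 did not pass the test after NMDA in any kind of retina without rescaling. With the length correction its WT response passed as a rise and its shPax6 response as a fall. With TPM its WT response passed as a fall, and with quantile normalization its shPax6 response did.

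In WT, 4 of the 10 genes rose and 2 fell at an adjusted p under 0.05 (limma, Benjamini-Hochberg), beside 26% of all tested genes that rose and 33.8% that fell. Rescaling each library to the same total (TPM), which moved the median WT response of all genes to -0.66, turned this split to 1 higher and 5 lower, and the length correction gave 5 higher and 2 lower. The median response of the 10 genes was 0.32 on the log2 scale, against -0.09 over all genes. In shPax6, 5 rose and 1 fell, beside 19.1% and 11% of all genes, with a median of 0.57 against 0.10, and 4 rose and 2 fell with the length correction or with quantile normalization. In JNK3 KO, none rose and 1 fell, beside 4.33% and 6.1%, with a median of 0.03 against -0.01. Under the looser rule of an unadjusted p under 0.05 with a log2 difference over 1, 35.3%, 15.2% and 4.18% of all genes were called in WT, shPax6 and JNK3 KO, and 2, 4 and 0 of the 10. For 10 genes, the counts in WT and JNK3 KO were near these background shares. Shares of all genes were not computed for TPM, the length correction or quantile normalization, so those counts have no share beside them.

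**Figure D1:**
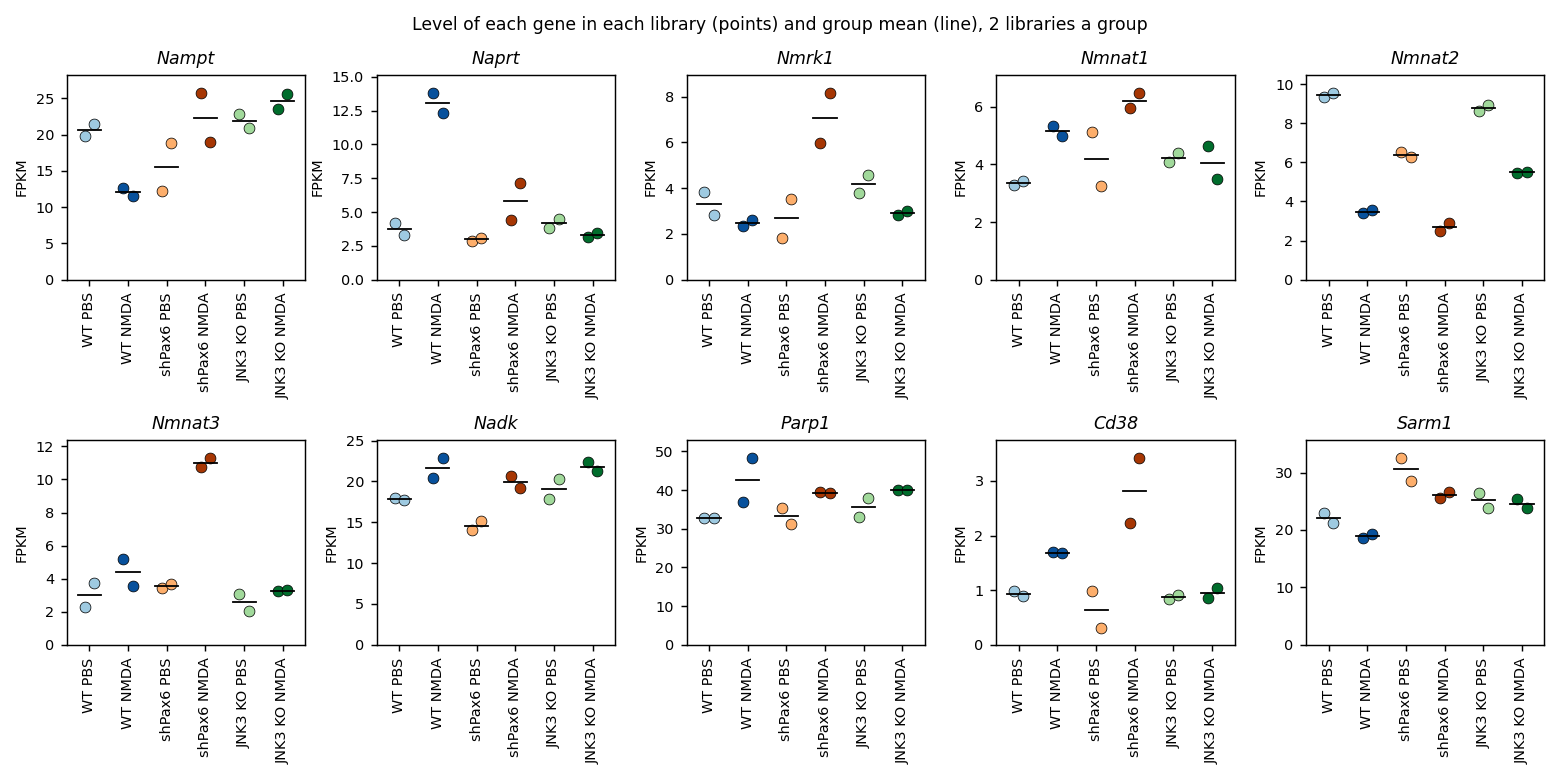
FPKM of the 10 genes in each of the 12 libraries (points, 2 a group) with the group mean (line); every vertical axis starts at 0. Nmnat2 is lower under NMDA in each kind of retina, Naprt is highest in WT NMDA, and Nmnat3, Nmrk1 and Cd38 are highest in shPax6 NMDA.

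Nampt (chr12:32819545-32853349, GRCm38, plus strand) encodes the rate-limiting enzyme of NAD salvage from nicotinamide. Its WT level was 19.8 and 21.4 FPKM after PBS, and 12.6 and 11.6 FPKM after NMDA. In JNK3 KO it was at 22.8 and 21.0 FPKM under PBS and 23.5 and 25.7 FPKM under NMDA. In shPax6 the values were 12.2 and 18.8 FPKM under PBS and 25.7 and 19.0 FPKM under NMDA. The WT groups did not overlap and the NMDA libraries were the lower ones, whereas in shPax6 and JNK3 KO the NMDA libraries were the higher ones, by a narrow margin in both.

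The WT fall was 0.77 on the log2 scale, a 1.70-fold decrease (log2 difference -0.77, SE 0.20, adjusted p = 0.00841, limma). The responses of shPax6 (0.54, SE 0.20, adjusted p = 0.0711) and JNK3 KO (0.17, SE 0.20, adjusted p = 0.687) did not pass. The WT response was lower than the shPax6 response by a log2 difference of -1.31 (SE 0.28, adjusted p = 0.00431) and lower than the JNK3 KO response by -0.93 (SE 0.28, adjusted p = 0.0205). These 3 calls ended with the length correction, which gave 0.056 for the WT response (adjusted p = 0.848), -0.46 for the difference from shPax6 (adjusted p = 0.239) and -0.03 for that from JNK3 KO (adjusted p = 0.951). The spliced length of Nampt, a mean over its transcripts weighted by their FPKM, was 4088 bases, and its coding model Nampt-201 has 4527. The median WT response of all genes over 4 kb was -1.17. The WT call also ended without WT PBS replicate 2 (log2 difference -0.71, adjusted p = 0.0531) or WT NMDA replicate 2 (-0.71, adjusted p = 0.0533), and in the JNK3 KO contrast leaving out replicate 2 of WT PBS, WT NMDA, JNK3 KO PBS or JNK3 KO NMDA gave adjusted p-values of 0.0682, 0.0674, 0.0688 and 0.0695. The shPax6 value passed without shPax6 PBS replicate 2 (0.85, adjusted p = 0.0112) or shPax6 NMDA replicate 2 (0.76, adjusted p = 0.0446), and in the coding transcript alone (0.50, adjusted p = 0.0172).

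Naprt (chr15:75890956-75894481, minus strand) encodes nicotinate phosphoribosyltransferase, the entry point of nicotinic acid. In WT it measured 4.18 and 3.31 FPKM after PBS, and 13.8 and 12.3 FPKM after NMDA. In shPax6 it went from 2.88 and 3.08 FPKM to 4.42 and 7.18 FPKM. The JNK3 KO retinas held 3.82 and 4.51 FPKM under PBS and 3.14 and 3.43 FPKM under NMDA. The WT NMDA libraries were the highest of the 12, and the shPax6 NMDA libraries did not overlap with those of shPax6 PBS.

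Naprt rose in WT by 1.78 on the log2 scale, 3.44-fold (SE 0.24, adjusted p = 0.000146, limma), and by 1.12 with the length correction (adjusted p = 0.0043). It rose in shPax6 by 0.90 (SE 0.24, adjusted p = 0.019), a call that ended with the length correction (0.67, adjusted p = 0.0657) and without shPax6 PBS replicate 1 (0.85, adjusted p = 0.0783), shPax6 PBS replicate 2 (0.94, adjusted p = 0.0538) or shPax6 NMDA replicate 2 (0.55, adjusted p = 0.0718). The JNK3 KO value was -0.33 (SE 0.24, adjusted p = 0.453), and the WT response was larger than the JNK3 KO response by 2.11 (SE 0.33, adjusted p = 0.000618) and by 1.34 with the length correction (adjusted p = 0.014). The difference between the WT and shPax6 responses was 0.89 (SE 0.33, adjusted p = 0.0525), 0.45 with the length correction (adjusted p = 0.323) and 1.23 without shPax6 NMDA replicate 2 (adjusted p = 0.00681).

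The transcripts of Naprt did not contribute evenly to its level. The coding model Naprt-201 of 13 exons was at 2.13 and 2.16 FPKM in WT PBS and 4.03 and 4.59 FPKM in WT NMDA. Naprt-204, an annotated retained-intron model of 489 bases that covers exons 10 to 13, was at 1.38 and 0.15 FPKM in WT PBS and 8.88 and 7.14 FPKM in WT NMDA, and was listed at 0 in all 4 shPax6 libraries. It made up 61.3% of the WT NMDA level and 20.4% of the WT PBS level. The intron it keeps, 78 bases in lower case between the capitals of exon sequence that it shares with Naprt-201, is shown because these bases set the model apart from the spliced form (GENCODE transcript, chr15:75891472-75891609, GRCm38, minus strand):
Naprt-204: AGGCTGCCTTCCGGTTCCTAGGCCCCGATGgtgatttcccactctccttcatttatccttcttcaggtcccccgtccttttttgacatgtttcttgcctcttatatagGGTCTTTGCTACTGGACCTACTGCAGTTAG

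With the coding transcript alone, the Naprt response was 0.97 in WT (SE 0.26, adjusted p = 0.00823), 0.79 in shPax6 (SE 0.26, adjusted p = 0.0433) and 0.15 in JNK3 KO (adjusted p = 0.774), and the difference between WT and JNK3 KO no longer passed (0.82, adjusted p = 0.0823). A further limit is the neighbouring gene Eef1d, a translation elongation factor read from the same strand, whose exons share 277 bases with the 5′ end of Naprt-201 and none with Naprt-204. Eef1d was at 48.9 and 56.4 FPKM in WT PBS and 248 and 267 FPKM in WT NMDA, so its level moved in the same libraries as that of Naprt. Its part in the Naprt values was not tested.

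Nmrk1 (chr19:18631950-18652428, plus strand) encodes nicotinamide riboside kinase. It was at 3.82 and 2.82 FPKM in WT PBS, 2.33 and 2.61 FPKM in WT NMDA, 1.81 and 3.53 FPKM in shPax6 PBS and 5.97 and 8.15 FPKM in shPax6 NMDA. JNK3 KO libraries had 3.79 and 4.55 FPKM under PBS and 2.81 and 2.98 FPKM under NMDA. The shPax6 NMDA libraries were above the other 10. Nmrk1 rose in shPax6 by 1.43 (SE 0.31, adjusted p = 0.00816, limma), and its WT value was -0.40 (SE 0.31, adjusted p = 0.302), which with the length correction became a fall of -0.93 (adjusted p = 0.0395). The WT response was lower than the shPax6 response by -1.83 (SE 0.44, adjusted p = 0.00782), and by -2.15 with the length correction (adjusted p = 0.0061), but the call ended with quantile normalization (-1.21, adjusted p = 0.0613).

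That rise was not all in coding transcripts. Coding models of Nmrk1 summed to 1.34 and 2.21 FPKM in shPax6 PBS and 2.41 and 3.95 FPKM in shPax6 NMDA, while the other models, a retained-intron model and a nonsense-mediated decay model among them, went from 0.47 and 1.33 FPKM to 3.56 and 4.20 FPKM. In coding transcripts alone neither the shPax6 response (0.81, adjusted p = 0.0727) nor the difference from WT (-0.66, adjusted p = 0.222) passed the test. Without shPax6 NMDA replicate 2 the gene-level response was 1.20 (adjusted p = 0.0536).

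Among the 3 NMNAT genes, Nmnat2 had the highest level under PBS and was the member that fell. Nmnat2 (chr1:152954993-153119261, plus strand, 4425 spliced bases) was at 9.34 and 9.55 FPKM in WT PBS and 3.41 and 3.54 FPKM in WT NMDA. In shPax6 it was at 6.51 and 6.29 FPKM under PBS and 2.47 and 2.89 FPKM under NMDA. In JNK3 KO it was at 8.62 and 8.95 FPKM under PBS and 5.48 and 5.49 FPKM under NMDA. No 2 of the 6 groups overlapped, in the order WT PBS, JNK3 KO PBS, shPax6 PBS, JNK3 KO NMDA, WT NMDA and shPax6 NMDA. Between the neighbours WT PBS and JNK3 KO PBS the difference was -0.10 (SE 0.13, adjusted p = 0.814).

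Nmnat2 fell after NMDA by a log2 difference of -1.42 in WT (2.67-fold, SE 0.13, adjusted p = 1.7e-05, limma), -1.23 in shPax6 (2.34-fold, SE 0.13, adjusted p = 0.000185) and -0.67 in JNK3 KO (1.59-fold, SE 0.13, adjusted p = 0.0154). With the length correction these were -0.49 (adjusted p = 0.0147), -1.23 (adjusted p = 0.000182) and -0.77 (adjusted p = 0.009), so that each remained a fall but the order of WT and JNK3 KO turned. The larger fall in WT than in JNK3 KO, -0.75 (SE 0.19, adjusted p = 0.00916), became 0.28 with the length correction (adjusted p = 0.307). The WT and shPax6 responses differed by -0.19 (adjusted p = 0.441), and by 0.74 with the length correction (adjusted p = 0.0151). The JNK3 KO call did not hold when any of the 4 JNK3 KO libraries was left out: the log2 difference then ran from -0.70 to -0.64, with adjusted p-values of 0.0782 without PBS replicate 1, 0.0868 without PBS replicate 2, 0.087 without NMDA replicate 1 and 0.104 without NMDA replicate 2. In coding transcripts alone, neither the JNK3 KO response (-0.68, adjusted p = 0.204) nor its difference from WT (-0.69, adjusted p = 0.218) passed the test.

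Before any NMDA, Nmnat2 was lower in shPax6 than in WT by -0.55 (1.47-fold, SE 0.13, adjusted p = 0.0229). This call ended with the length correction (-0.44, adjusted p = 0.0538), in coding transcripts alone (-0.65, adjusted p = 0.194) and without any of the 4 PBS libraries concerned, at adjusted p-values of 0.0994 and 0.125 without WT PBS replicates 1 and 2 and 0.0585 and 0.0548 without shPax6 PBS replicates 1 and 2. The RGC marker sum was lower in the same shPax6 PBS libraries, at 157–158 FPKM against 536–555 FPKM in WT PBS, and its part in the Nmnat2 difference was not tested. Under NMDA the RGC sum was 125–127 FPKM in JNK3 KO and 297–318 FPKM in WT, and uncorrected Nmnat2 was higher in JNK3 KO. With the length correction the Nmnat2 response was -0.77 in JNK3 KO and -0.49 in WT. The corrected PBS levels of these 2 kinds differed by 0.02. The order of Nmnat2 between WT NMDA and JNK3 KO NMDA thus depended on the scaling. Amacrine markers, summed over 6 genes, were at 181–185 FPKM in JNK3 KO NMDA, 88.5–95.2 FPKM in WT NMDA and 82.4–83.8 FPKM in shPax6 NMDA. The part of either marker sum in the Nmnat2 values under NMDA was not tested.

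The genes whose levels followed Nmnat2 most closely over the 12 libraries, among 12369 genes with a mean above 1 FPKM in every group, were Ndrg4 (Pearson r = 0.995), Ppp2r2c (0.993) and Ripor2 (0.99). Ndrg4 was at 214 and 218 FPKM in WT PBS, 69.1 and 63.9 FPKM in WT NMDA and 112 and 107 FPKM in JNK3 KO NMDA. These correlations are a description over libraries that share their groups and, in WT NMDA, their length trend. Nearly all Nmnat2 signal was on the full-length coding model Nmnat2-201, except in shPax6 NMDA, where that model held 35.3% of the gene and was listed at 0 in a library.

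Upstream of Nmnat2, the RefSeq promoter window (the 250 bases before the RefSeq start, GRCm38.p6) held the cAMP response element core TGACG at 245 and 133 bases before the start. The stretch of that window that lies before the annotated gene start is shown, chr1:152954851-152954992, plus strand, with the TGACG matches in capitals, because Nmnat2 was the gene that fell in every kind of retina:
Nmnat2 upstream: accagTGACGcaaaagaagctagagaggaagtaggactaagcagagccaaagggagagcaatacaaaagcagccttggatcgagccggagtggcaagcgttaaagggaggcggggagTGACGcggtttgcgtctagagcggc

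On either strand, TGACG was present in 17.8% of 32851 promoter windows of that length, and the full element TGACGTCA, which contains it, in 1.55%. RefSeq windows were matched for 9 of the 10 genes, all but Naprt. Sarm1 and Nampt each held 1 TGACG, no member held TGACGTCA or the AP-1 letters TGANTCA (6.75% of all windows), and CACGTG (6.02%) was found in Parp1 and in 1 of the Nadk windows. A match is a description of letters, not a site.

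Nmnat1 (chr4:149467572-149485202, minus strand) was at 3.29 and 3.41 FPKM in WT PBS, 5.35 and 4.98 FPKM in WT NMDA, 5.12 and 3.25 FPKM in shPax6 PBS and 5.97 and 6.48 FPKM in shPax6 NMDA. In JNK3 KO it was at 4.07 and 4.40 FPKM under PBS and 4.64 and 3.48 FPKM under NMDA. The NMDA libraries were the higher ones in WT and shPax6 and overlapped with PBS in JNK3 KO. Its rise in WT was 0.61 (SE 0.23, adjusted p = 0.0447, limma), close to the median of 0.52 for genes of 1 to 2 kb, and did not pass with the length correction (0.43, adjusted p = 0.149). It also ended without any 1 of 8 libraries, which gave adjusted p-values of 0.147 and 0.117 without WT PBS replicates 1 and 2, 0.149 and 0.0952 without WT NMDA replicates 1 and 2, 0.0603 and 0.0598 without shPax6 NMDA replicates 1 and 2, and 0.0639 and 0.064 without JNK3 KO PBS replicates 1 and 2. The shPax6 value was 0.60 (adjusted p = 0.081), or 0.92 without shPax6 PBS replicate 1 (adjusted p = 0.0176), and that of JNK3 KO was -0.07 (adjusted p = 0.909).

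Nmnat3 (chr9:98287435-98420438, plus strand) was at 3.43 and 3.68 FPKM in shPax6 PBS and 10.7 and 11.3 FPKM in shPax6 NMDA. Elsewhere it lay between 2.03 and 5.17 FPKM, and the PBS and NMDA libraries of WT overlapped. Nmnat3 rose in shPax6 by 1.60, 3.04-fold (SE 0.28, adjusted p = 0.00267, limma), and by 1.43 with the length correction (adjusted p = 0.00464). The values in WT (0.54, adjusted p = 0.13; 0.39 with the length correction, adjusted p = 0.281) and JNK3 KO (0.37, adjusted p = 0.488) did not pass, and neither did the difference between the WT and shPax6 responses (-1.06, SE 0.40, adjusted p = 0.0519; -1.04 with the length correction, adjusted p = 0.0668). That difference did pass without WT PBS replicate 1 (-1.39, adjusted p = 0.0263), WT NMDA replicate 1 (-1.32, adjusted p = 0.0379) or JNK3 KO PBS replicate 1 (adjusted p = 0.0476) or 2 (adjusted p = 0.0465), and the WT value passed without WT PBS replicate 2 (0.87, adjusted p = 0.0478). The rise was in coding models, which summed to 2.90 and 3.65 FPKM under PBS and 9.15 and 10.4 FPKM under NMDA in shPax6, and among them Nmnat3-202 went from 0 in both libraries to between 3.76 and 5.13 FPKM.

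Nadk (chr4:155562378-155591001, plus strand) encodes the cytosolic kinase that turns NAD into NADP. It was at 17.9 and 17.7 FPKM in WT PBS, 20.4 and 22.8 FPKM in WT NMDA, 14.0 and 15.2 FPKM in shPax6 PBS and 20.7 and 19.2 FPKM in shPax6 NMDA. In JNK3 KO it was at 17.8 and 20.3 FPKM under PBS and 22.4 and 21.2 FPKM under NMDA, so that NMDA was the higher condition in each kind without overlap. Nadk rose by 0.45 in shPax6 (SE 0.10, adjusted p = 0.00942, limma) and by 0.28 in WT (SE 0.10, adjusted p = 0.04), and its JNK3 KO value was 0.20 (SE 0.10, adjusted p = 0.278). With the length correction the WT rise was 0.59 (adjusted p = 0.00159). TPM scaling turned the WT rise into a fall that passed the test (-0.30, adjusted p = 0.0331). The WT call ended without WT PBS replicate 1 (adjusted p = 0.105), WT PBS replicate 2 (0.128), WT NMDA replicate 2 (0.188) or JNK3 KO NMDA replicate 1 (0.0539) or 2 (0.0574), and the shPax6 call without shPax6 PBS replicate 1 (0.39, adjusted p = 0.0503).

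Parp1 (chr1:180568924-180601254, plus strand), which encodes the DNA damage sensor that spends NAD to build poly(ADP-ribose), had the highest level of the 10 genes in all 6 groups. It was at 32.7 and 32.8 FPKM in WT PBS and 37.0 and 48.2 FPKM in WT NMDA. In shPax6 it was at 35.3 and 31.2 FPKM under PBS and 39.6 and 39.1 FPKM under NMDA. The JNK3 KO values were 33.1 and 38.0 FPKM under PBS and 40.1 FPKM in both NMDA libraries. The NMDA libraries were above the PBS libraries in each kind, and the spread was widest in WT NMDA.

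Parp1 rose in WT by 0.37, 1.29-fold (SE 0.12, adjusted p = 0.0286, limma), and by 0.92 with the length correction (adjusted p = 0.000389). The call ended without WT NMDA replicate 2, which left 0.17 (adjusted p = 0.201), and without WT PBS replicate 1 (adjusted p = 0.1) or 2 (adjusted p = 0.0958), and TPM scaling turned the value to -0.21 (adjusted p = 0.163). Quantile normalization also ended it (0.11, adjusted p = 0.422). The values in shPax6 (0.25, adjusted p = 0.168) and JNK3 KO (0.18, adjusted p = 0.439) did not pass. The WT response differed from that of shPax6 by 0.12 (adjusted p = 0.597) and from that of JNK3 KO by 0.19 (adjusted p = 0.403). With the length correction both differences passed, at 0.76 (adjusted p = 0.0104) and 0.79 (adjusted p = 0.00899). In coding transcripts alone neither passed (0.15, adjusted p = 0.482, and 0.23, adjusted p = 0.267).

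Cd38 (chr5:43868553-43912375, plus strand) encodes a membrane NAD glycohydrolase of immune cells and glia. It had the lowest mean of the 10 in every group but shPax6 NMDA, where Nmnat2 was lower (2.68 against 2.82 FPKM). It was at 0.98 and 0.89 FPKM in WT PBS, 1.69 and 1.68 FPKM in WT NMDA, 0.84 and 0.91 FPKM in JNK3 KO PBS and 0.85 and 1.04 FPKM in JNK3 KO NMDA. In shPax6 it was at 0.98 and 0.31 FPKM under PBS and 2.23 and 3.41 FPKM under NMDA, the highest values of the 12 libraries. Cd38 rose in shPax6 by 2.10 (SE 0.45, adjusted p = 0.00716, limma) and by 2.01 with the length correction (adjusted p = 0.00995). The size of that rise rested on the PBS libraries: it was 2.80 without shPax6 PBS replicate 1 and 1.40 without replicate 2, and passed the test in both cases. The WT value was 0.79 (SE 0.45, adjusted p = 0.162) and passed with the length correction (1.28, adjusted p = 0.0445). It also passed with quantile normalization (1.21, adjusted p = 0.0496), on the compared groups only (adjusted p = 0.0283) and in the coding transcript alone (adjusted p = 0.0439). Leaving out shPax6 PBS replicate 1 or 2, which moves only the shared spread, gave adjusted p-values of 0.0473 and 0.038 for it. The WT and shPax6 responses differed by -1.32 (SE 0.64, adjusted p = 0.117), or -0.73 with the length correction (adjusted p = 0.405), which became -2.01 (adjusted p = 0.00922) without shPax6 PBS replicate 1 and -1.86 (adjusted p = 0.00525) in the coding transcript alone.

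Markers of immune cells and glia moved in the same libraries as Cd38, Nmnat3 and Nmrk1. In shPax6, the sum of 5 monocyte and macrophage markers went from 41.2–43.9 FPKM under PBS to 289–296 FPKM under NMDA, that of 5 microglial markers from 24.3–26.3 to 44.2–46.8 FPKM, and that of 5 Müller glia markers from 1470–1549 to 2378–2543 FPKM. In WT the same sums were 112–122 and 167–170 FPKM, 15.3–17.0 and 17.4–19.6 FPKM, and 576–584 and 629–655 FPKM. In JNK3 KO they were 85.6–92.2 and 66.8–67.1 FPKM, 17.3–19.4 and 10.66–10.96 FPKM, and 676–705 and 686–693 FPKM. None of the markers in these lists was at 0 in any group. The 5 B and T cell markers summed to 5.03–8.18 FPKM in shPax6 NMDA and to 1.80 FPKM at most in the other groups. The 5 neutrophil markers went from 3.83–3.89 to 60.1–68.8 FPKM in shPax6 and from 194–217 to 1928–1971 FPKM in WT, and were at 136–151 FPKM under PBS and 11.4–12.8 FPKM under NMDA in JNK3 KO. The part of these cells in the 3 rises was not tested.

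Sarm1 (chr11:78472330-78497754, minus strand, 3581 spliced bases) was at 23.0 and 21.1 FPKM in WT PBS and 18.6 and 19.4 FPKM in WT NMDA. In shPax6 it was at 32.5 and 28.6 FPKM under PBS and 25.6 and 26.5 FPKM under NMDA. JNK3 KO libraries lay at 26.5 and 23.8 FPKM under PBS and 25.4 and 23.8 FPKM under NMDA. The NMDA libraries were the lower ones in WT and shPax6 and overlapped with PBS in JNK3 KO. The log2 differences were -0.22 in WT (SE 0.09, adjusted p = 0.0751, limma), -0.23 in shPax6 (SE 0.09, adjusted p = 0.106) and -0.03 in JNK3 KO (SE 0.09, adjusted p = 0.905).

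With the length correction the WT value of Sarm1 turned to 0.42 (adjusted p = 0.00595), the shPax6 value was -0.29 (adjusted p = 0.0483), and the WT response then exceeded that of shPax6 by 0.72 (adjusted p = 0.00352) and that of JNK3 KO by 0.51 (adjusted p = 0.0176). With TPM the WT value was -0.79 (adjusted p = 5.56e-05), and both differences passed in the opposite direction, at -0.51 from shPax6 (adjusted p = 0.00852) and -0.78 from JNK3 KO (adjusted p = 0.000815). Without either change these differences were 0.01 (adjusted p = 0.97) and -0.19 (adjusted p = 0.28). The direction of the gene-level WT response of Sarm1 and of its differences from the other kinds thus depended on the scaling. Under PBS, Sarm1 was higher in shPax6 than in WT by 0.46, 1.38-fold (SE 0.09, adjusted p = 0.0104), and by 0.57 with the length correction (adjusted p = 0.00424). That call ended without WT PBS replicate 2 (0.40, adjusted p = 0.0851) or shPax6 PBS replicate 1 (0.37, adjusted p = 0.0603).

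Below the gene level, the coding and other transcripts of Sarm1 moved apart in WT. The coding models Sarm1-201 and Sarm1-202 together were at 14.4 and 14.6 FPKM in WT PBS and 2.75 and 2.94 FPKM in WT NMDA. In shPax6 they summed to 22.7 FPKM in both PBS libraries and to 20.2 and 19.8 FPKM under NMDA. In JNK3 KO they summed to 14.5 and 15.6 FPKM under PBS and 16.0 and 15.4 FPKM under NMDA. The WT NMDA libraries were the only ones below 14 FPKM, and Sarm1-201 was at 0 and 0.73 FPKM there. Over coding transcripts alone the WT response was -2.31 (SE 0.09, adjusted p = 4.96e-08, limma), that of shPax6 was -0.18 (adjusted p = 0.138) and that of JNK3 KO was 0.062 (adjusted p = 0.711). The WT response differed from that of shPax6 by -2.13 (SE 0.12, adjusted p = 2.19e-06) and from that of JNK3 KO by -2.37 (SE 0.12, adjusted p = 6.53e-07).

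The counterpart was Sarm1-204, an annotated retained-intron model of 2497 bases that covers exons 6 to 9 of the 9 exons of Sarm1-202 and begins 142 bases upstream of exon 6 of that model, inside the intron. It was at 7.34 and 5.68 FPKM in WT PBS and 15.8 and 15.6 FPKM in WT NMDA, or 29.5% and 82.8% of the gene. It was at 5.12 and 2.89 FPKM in shPax6 PBS, 3.39 and 4.89 FPKM in shPax6 NMDA, 10.6 and 8.14 FPKM in JNK3 KO PBS and 7.50 and 6.86 FPKM in JNK3 KO NMDA. The start of exon 6 of Sarm1-202 is shown in both models, because the bases before it set them apart. The capitals are the first bases of that exon, which both models hold and Sarm1-201 lacks, since its exon 6 begins further downstream. The lower-case bases are intron in Sarm1-204 (chr11:78483627-78483686, minus strand) and the end of exon 5 in Sarm1-202 (chr11:78487223-78487252, minus strand; GENCODE transcripts, GRCm38):
Sarm1-204: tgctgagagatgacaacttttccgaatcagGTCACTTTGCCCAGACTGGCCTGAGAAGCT
Sarm1-202: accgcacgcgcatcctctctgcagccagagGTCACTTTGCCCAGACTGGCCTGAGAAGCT

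By its position on the genome Sarm1-204 is a 3′ end model, as are the models of Naprt, Parp1 and Nadk that gained in WT NMDA. Naprt-204 covers exons 10 to 13 of 13. Parp1-208, which covers exons 20 to 23 of the 23 exons of Parp1-201, was listed at 0 in both libraries of WT PBS and reached 7.78 and 18.1 FPKM in those of WT NMDA. Nadk-202, which begins at exon 4 of the 12 exons of Nadk-203, was at 0.78 and 0.66 FPKM in WT PBS and 10.1 and 16.9 FPKM in WT NMDA. It is a coding model of 2737 bases with 1089 coding bases, against 3152 and 1317 in Nadk-203, and so not a short model. Parp1-201, the full coding model, was at 29.3–29.5 FPKM in WT PBS and 26.4–27.6 FPKM in WT NMDA. In these transcript estimates the rise of Parp1 in WT lay in the short model.

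A gain of 3′ end models was also seen in other genes of the WT NMDA libraries. The share of a gene on models of its 3′ end went from 29.5% to 82.8% for Sarm1, from 20.4% to 61.3% for Naprt, from 10.5% to 68.0% for Nadk and from 6.03% to 35.5% for Parp1, and 10.5%, 19.6%, 7.84% and 27.7% of the 4500 genes that have such models gained at least as many percentage points. Most of the Nadk share in WT NMDA lay on Nadk-202 (62.4% of the gene), which is not a short model. The 4500 genes follow the same rule of position, so their models can be long too. Counted over all models other than coding ones, the share in Sarm1 went from 34.3% to 85.0%. Of 10288 genes, 379 (3.68%) gained as much. Over those genes this share rose in 3174 and fell in 5364, and its median was 2.28% and 2.92% in the WT NMDA libraries and 7.74% to 8.95% in the other 10. Models of the 5′ end by the mirrored rule, present in 5111 genes, took on average 6.17% of the gene in both WT NMDA libraries. In the other 10 they took 8.38% to 9.99%. The libraries were made by reverse transcription from an oligo-dT primer at the 3′ end of the RNA. The transcript values are RSEM estimates that divide the reads of shared exons between models. The part of the 3′ weighting in the Sarm1, Naprt, Nadk and Parp1 values was not tested.

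**Figure D2:**
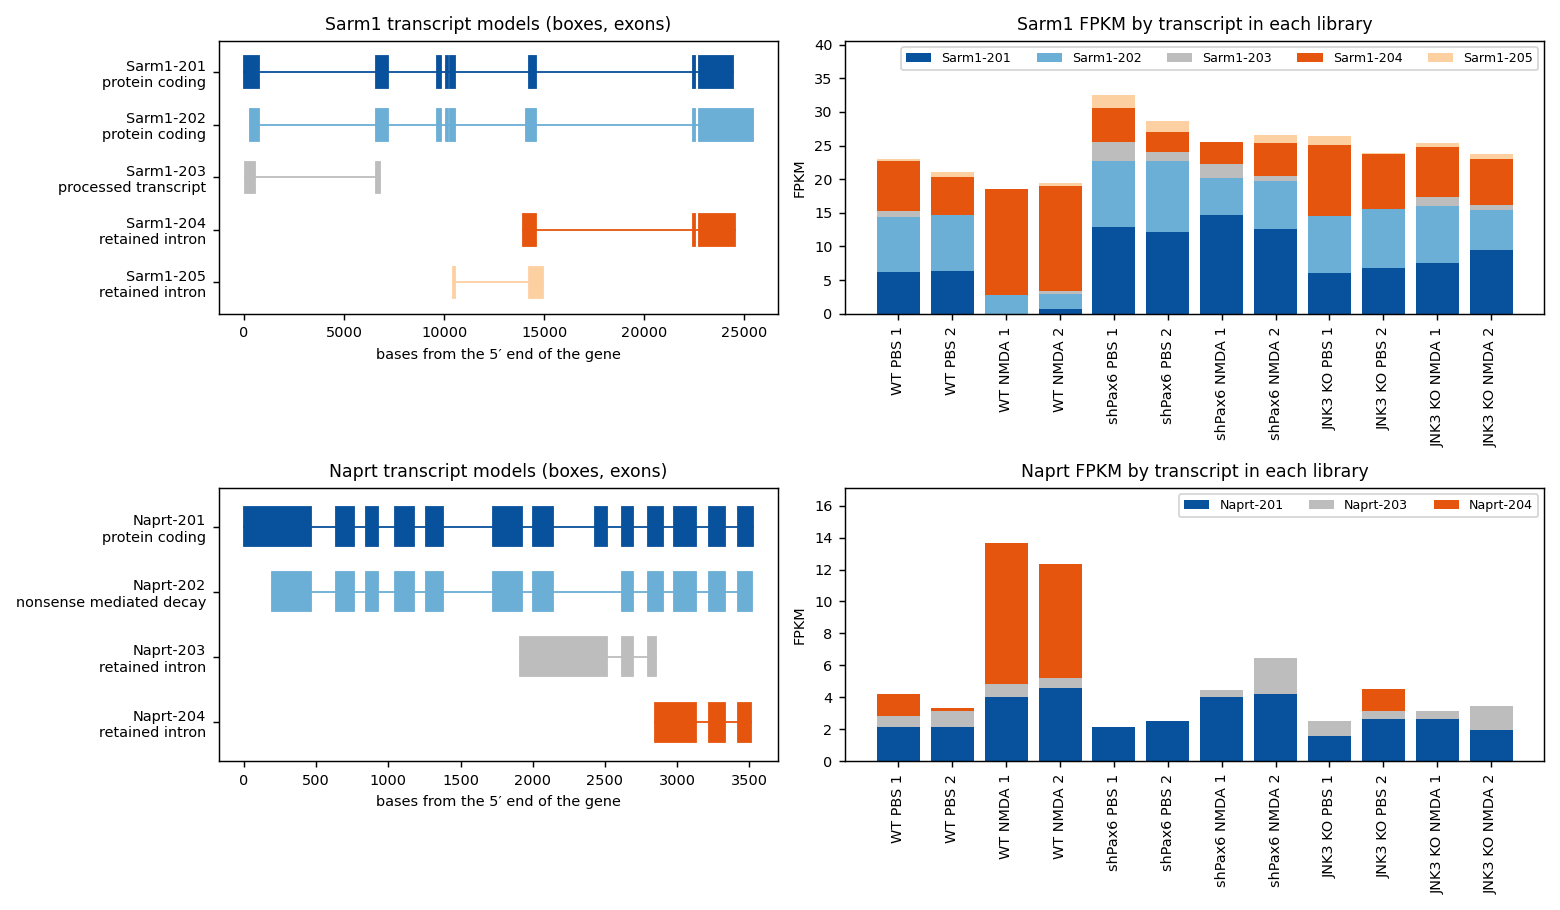
Exons of the annotated transcripts of Sarm1 and Naprt by distance from the 5′ end of the gene in bases (left), and FPKM of the transcripts that reached a group mean of 1 FPKM, stacked, in each of the 12 libraries (right). In both WT NMDA libraries the models of the 3′ end, Sarm1-204 and Naprt-204 (orange), make up most of the gene, and the Sarm1 coding models (blue) fall to 2.75 and 2.94 FPKM.

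The differences between kinds of retina were counted over the 10 genes in the same way. In the WT response minus the shPax6 response, none was higher and 2 were lower (Nampt and Nmrk1), beside 18.3% and 31.4% of all genes, with a median of -0.18 against -0.28. The split became 3 higher and 1 lower with the length correction, 0 higher and 7 lower with TPM, and 1 of each with quantile normalization. TPM also moved the median of all genes in this contrast to -0.797. In the WT minus the JNK3 KO response, Naprt was higher and Nampt and Nmnat2 were lower, beside 23.5% and 27.9%, with a median of 0.14 against -0.03. Here the length correction gave 3 higher and 0 lower, TPM 1 higher and 4 lower, and quantile normalization 2 higher and 1 lower. With TPM the median of all genes was -0.615. Shares of all genes called were not computed under these rescalings, so these counts cannot be set against a background. The looser rule called 34.5% and 37.3% of all genes in these contrasts, with 3 (Nampt, Nmnat3 and Nmrk1) and 1 (Naprt) of the 10. The WT response enters both contrasts, so they are not independent.

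Under PBS, 1 of the 10 genes was higher in shPax6 than in WT (Sarm1) and 1 lower (Nmnat2), beside 5.36% and 11.2% of all genes. None of the 10 was higher or lower in JNK3 KO than in WT, beside 1.1% and 0.407%, and none had an unadjusted p under 0.05. The looser rule called none of the 10 in either contrast, beside 5.98% and 1.14% of all genes. The other 8 genes had log2 differences between -0.64 and 0.28 for shPax6, and all 10 lay between -0.21 and 0.33 for JNK3 KO.

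**Figure D3:**
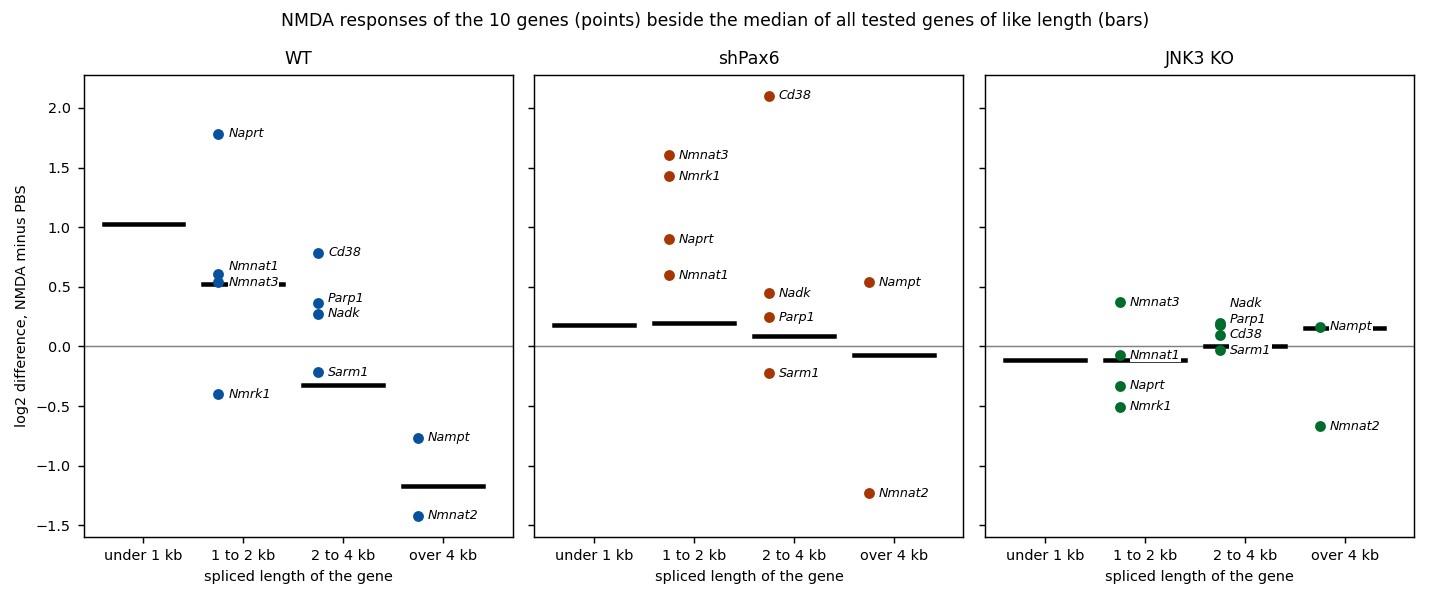
NMDA responses of the 10 genes (points, log2 difference of FPKM + 0.1) grouped by spliced gene length, with the median of all tested genes of that length (black bars). In WT the bars run from 1.03 to -1.17 and Naprt lies above its bar by more than any other member, whereas in JNK3 KO the bars lie between -0.11 and 0.16 and Nmnat2 lies below its bar.

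Genes of the wider pathway were followed from lists of 45 tested entries. Of 11 genes of axon survival and its control, 1 rose and 7 fell in WT, beside 26% and 33.8% of all genes, with a median of -1.02 against -0.09. With the length correction 1 rose and 5 fell, with no share of all genes computed for that setting. The falls that passed both ways were those of Zdhhc17, the palmitoyltransferase of NMNAT2 (-1.74, and -1.20 with the length correction), the kinase Map2k4 (-1.34 and -0.80) and the JNK genes Mapk8 (-1.83 and -1.24) and Mapk9 (-1.50 and -0.97). Those of Mycbp2, the ligase that targets NMNAT2 for turnover (-1.38 and 0.10), and of the kinases Map3k12 (-0.80 and -0.19) and Map3k13 (-1.02 and 0.54) did not pass with the length correction, and 2 of the 3 changed sign. Stmn2, a microtubule regulator of axons, rose in WT by 0.62 (adjusted p = 0.00848), which did not pass with the length correction (0.35, adjusted p = 0.114), and fell in JNK3 KO by a log2 difference of -1.34 (adjusted p = 0.00133; -1.26 with the length correction, adjusted p = 0.00193). In shPax6, 1 rose and 3 fell, and in JNK3 KO none rose and 1 fell.

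Of 23 other NAD users (PARP, sirtuin and related genes), 7 rose and 7 fell in WT, 9 rose and 1 fell in shPax6, and 1 rose and none fell in JNK3 KO. Parp10, a mono-ADP-ribosyltransferase, was at 6.56 and 8.72 FPKM in WT PBS and 52.7 and 45.3 FPKM in WT NMDA, at 5.84 and 6.73 FPKM and 21.3 and 18.5 FPKM in shPax6, and at 17.0 and 19.3 FPKM and 19.6 and 21.1 FPKM in JNK3 KO. Its WT rise was 2.68 on the log2 scale, and 2.82 with the length correction (adjusted p = 2.04e-06). Of 6 other genes listed under synthesis that passed the filter, 2 rose and 2 fell in WT and 2 rose and 1 fell in shPax6. That list is not limited to enzymes that make NAD, and Nnmt was among the genes that rose in both kinds. Nnmt, which methylates nicotinamide, was below 2 FPKM in all libraries and listed at 0 in both shPax6 PBS libraries. Of 5 entries for NAD phosphate genes, in which Nnt is present under 2 gene identifiers, 2 fell in WT and 1 in shPax6. Across all 45 entries 10 rose and 18 fell in WT, 12 rose and 6 fell in shPax6, and 1 rose and 1 fell in JNK3 KO. The WT counts were near the shares over all genes, 26% higher and 33.8% lower, and the shares for shPax6 were 19.1% and 11% and for JNK3 KO 4.33% and 6.1%. With the length correction the counts were 9 higher and 17 lower in WT, 8 and 8 in shPax6, and 0 and 1 in JNK3 KO. These corrected counts have no share of all genes beside them.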

How the data were processed

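RNA-seq was made from 12 mouse retina libraries in 6 groups of 2. The authors aligned the reads to GRCm38.p6 with STAR (2.7.1a), quantified genes and transcripts with RSEM (1.3.3), and deposited FPKM values rounded to 2 decimals. The depth behind a value is unknown, because no read numbers accompany the FPKM values, so no counting intervals are given. The authors' own tests (edgeR 3.36.0) were not repeated, since FPKM values are not read numbers.

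Here, log2(FPKM + 0.1) was fitted with limma (3.58.1, intensity trend) in R (4.3.3) over all 12 libraries and 6 group means, for the 16471 genes with a group mean above 1 FPKM. P-values were adjusted by Benjamini-Hochberg over all these genes, at a threshold of 0.05. Fold changes are on the log2(FPKM + 0.1) scale, which understates changes of low genes. The fit was tested on simulated data before use. The 7 contrasts were the NMDA response in each kind of retina, the WT response minus each other response, and each other kind against WT under PBS. Length correction removed each library's lowess trend (span 0.3) on spliced length against the mean of all libraries. The spliced length of a gene was the mean length of its transcripts, weighted by their mean FPKM over the 12 libraries. Annotation came from GENCODE M21 (GRCm38), which matched 99.53% of gene and 99.14% of transcript identifiers.

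The 10 genes and all lists were chosen with earlier results of these data known. Besides the 10 genes, the rule for naming took pathway genes past the threshold with a log2 difference over 1 in at least 2 of the 3 NMDA responses (Parp10 and Nnmt) and the 3 genes most like Sarm1, Nmnat2 and Nampt. The axon survival genes and Eef1d were named after their values were seen. Alternatives were a pseudocount of 1, no filter, TPM, quantile normalization, length correction, a fit on the compared groups only, the replicate block, each library left out in turn and the looser call rule. Sums of coding transcripts and a fit without the WT NMDA libraries were added after the data were seen.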

Additional observations from a re-analysis of the deposited data

Results flagged for a closer look

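The NMDA response differed between kinds of retina, by the test of the difference itself in limma, for 4 of the 10 genes in 5 results. Of all genes, 18.3% were higher and 31.4% lower in WT minus shPax6, and 23.5% and 27.9% in WT minus JNK3 KO. The counts among the 10 genes were not above these shares. WT minus shPax6 gave -1.31 for Nampt (adjusted p = 0.00431) and -1.83 for Nmrk1 (adjusted p = 0.00782). WT minus JNK3 KO gave -0.93 for Nampt (adjusted p = 0.0205), 2.11 for Naprt (adjusted p = 0.000618) and -0.75 for Nmnat2 (adjusted p = 0.00916). All 5 include the WT NMDA libraries, whose gene-length trend and 3′ weighting are described above, and the length correction left only the Nmrk1 and Naprt differences past the threshold. In coding transcripts alone neither of these passed (Nmrk1 -0.66, adjusted p = 0.222; Naprt 0.82, adjusted p = 0.0823), and quantile normalization ended that of Nmrk1 (adjusted p = 0.0613).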

How the results depend on the processing

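Counts of the 10 genes that moved by over 1.5 times were as follows. Apart from the looser rule, no share of all genes was computed for an alternative. In WT, 6 were called (4 higher, 2 lower; with TPM 1 higher, 5 lower), 2 by the looser rule and 2 to 7 with a library left out (2 without WT NMDA replicate 2, 3 without either WT PBS library). In shPax6, 6 were called and 1 in the fit on the compared groups only. In JNK3 KO, 1 was called, 0 with coding transcripts only, 0 by the looser rule and 0 to 1 with a library left out (0 whichever JNK3 KO library was left out). For WT minus shPax6, 2 became 4 with a pseudocount of 1, 7 with TPM (all lower) and 4 with the length correction (3 higher, 1 lower). For WT minus JNK3 KO, 3 became 5 with TPM and 1 by the looser rule, and the 3 with the length correction were all higher. For shPax6 against WT under PBS, 2 became 1 with quantile normalization, 1 with the length correction, 0 on the compared groups only, 0 by the looser rule and 0 to 2 with a library left out (0 without WT PBS replicate 2 or shPax6 PBS replicate 1, 1 without WT PBS replicate 1).

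Directions turned as follows. TPM, which moved the median WT response of all genes from -0.09 to -0.66, gave -0.30 for Nadk, -0.0185 for Nmnat3 and -0.21 for Parp1 in WT and -0.51 for Sarm1 in WT minus shPax6. The length correction gave 0.056 for Nampt and 0.42 for Sarm1 in WT, and 0.28 for Nmnat2 and 0.51 for Sarm1 in WT minus JNK3 KO. Quantile normalization gave 0.014 for Nmrk1 in WT. Coding transcripts alone gave 0.15 for Nmrk1 in WT, 0.15 for Naprt and 0.062 for Sarm1 in JNK3 KO, and -2.13 for Sarm1 in WT minus shPax6. With a library left out, the JNK3 KO response ran from -0.037 to 0.23 for Cd38, from -0.28 to 0.13 for Nmnat1 and from -0.11 to 0.044 for Sarm1, and WT minus shPax6 from -0.083 to 0.10 for Sarm1. The fit on the compared groups only ended the shPax6 calls of Cd38, Nadk, Naprt, Nmnat2 and Nmrk1 and the WT calls of Nadk (adjusted p = 0.0539) and Parp1 (0.129). No filter ended the WT calls of Nadk (0.0504) and Nmnat1 (0.073). Quantile normalization ended the WT call of Parp1 (0.422) and the shPax6 call of Naprt (0.0648). The cause of these changes was not tested.

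The replicate numbers did not pair the libraries: deviations of same-numbered libraries correlated between -0.097 and 0.086 over 15 pairs of groups. The replicate block left the counts at 6 in WT, 6 in shPax6 and 1 in JNK3 KO and changed no call. With 2 libraries a group and no depth, small differences could not be resolved. Left out of the fit, both WT NMDA libraries changed none of the counts of the shPax6 response (6), the JNK3 KO response (1) or shPax6 against WT under PBS (2).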

Other observations

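The genes with levels most like those of Sarm1 over the 12 libraries were Timm29 (Pearson r = 0.966), Epb41 (0.962) and Rp1l1 (0.95), and those most like Nampt were Septin10 (0.974), Coq10b (0.955) and Hey2 (0.943), out of 12369 genes compared. These values are a description over 6 groups of 2 libraries.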
